A study of Mus musculus with 30 samples.

Results

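The genes described here are 47 genes of the integrated stress response and of amino acid supply. They were followed across RNA libraries of mouse sensory ganglion cultures, enriched for neurons, with and without inhibition of AP-1. They were taken by name from the count table's 48795 genes, and fall into 5 roles: 6 transcription factors and regulators, 6 stress-induced effectors, 8 enzymes of amino acid and one-carbon synthesis, 9 amino acid transporters and 18 cytosolic tRNA synthetases. All 47 were in the table and all 47 passed the filter on low counts, which 18063 genes passed. Their levels were not used to choose them by the rule itself, although the set was proposed with earlier results of these data known.

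The libraries came from primary dorsal root ganglion (DRG) cultures, enriched for neurons, of C57/Bl6 wt mice. DN libraries had received A-Fos, a dominant negative protein that pairs with Jun and blocks AP-1 binding to DNA, in the sensory-neuron vector PHP.S, an adeno-associated virus. GFP libraries had received the same kind of vector with GFP, and untransduced libraries had received no vector. There were 10 libraries of each condition in 3 culture sets told apart by their titles, called plain (3 libraries per condition, no further mark), 7DIV (3 per condition, 7 days in vitro) and dated (4 per condition, a date in the title). The DN and GFP titles of the 7DIV set also begin with phps, which those of the other sets lack. Its untransduced titles read Untreated where the others read Unt. The series design says that cells of a mouse were split over all conditions, but no label names the mouse of a library. Libraries with the same replicate number are therefore taken as 1 culture by assumption, and every tally of cultures rests on it. In the counts, 8 of 30 same-number pairs correlated above 0.1 across genes (median r 0.06) once condition and set were taken off. Pairs with different numbers were not summarised beside them, so these values do not test the assumption. The age of the mice, the promoter that drives the transgenes and the share of cells transduced are not stated in the labels, and transgene reads were not analysed here.

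Cells under amino acid shortage, endoplasmic reticulum stress, mitochondrial stress or other strains activate kinases that phosphorylate the translation factor eIF2. General translation then falls while the mRNA of the transcription factor ATF4 is translated more, because of upstream reading frames in its leader. ATF4, paired with C/EBP-family or other leucine zipper proteins, activates genes that import amino acids, make them and charge them onto tRNAs, together with feedback and cell death regulators such as Ddit3 and Trib3. In injured neurons this response has been described as one branch of signalling from the kinase DLK, which also acts through Jun. ATF4 and AP-1 proteins belong to the same superfamily of leucine zipper factors.

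ATF4 with a C/EBP partner is known to bind a composite element of the form TGATGNAA. In these data 31 of the 47 genes were higher in DN than in GFP libraries. Matches to the element are shown here as a description, and their part in that rise was not tested. RefSeq promoter windows on GRCm38.p6, running from 250 bases before to 50 bases after a start, were held for 36 of the 47 genes. TGATGNAA occurred on either strand in 13 of these 36 genes (36.1%), against 4.51% of all 27025 genes with a window. The 47 genes were listed by name as genes of this response, so an excess over all genes is not independent of that choice. It was not tested. The AP-1 element TGANTCA occurred in 3 of 36 (8.33%), namely Slc7a1, Ddit3 and Qars, against 8.97% of all genes, and the CRE element TGACGTCA in 0 of 36, against 2.03% of all genes. No 2 of these matches overlapped. A match is a description of letters and not of binding. The 6 genes below were the ones with the smallest p among those higher in DN and holding TGATGNAA, each shown as 30 bases on its own strand with the match in capitals.
Chac1: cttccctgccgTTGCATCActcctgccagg
Yars: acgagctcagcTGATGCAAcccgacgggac
Iars: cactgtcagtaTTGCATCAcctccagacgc
Pycr1: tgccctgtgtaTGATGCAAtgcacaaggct
Asns: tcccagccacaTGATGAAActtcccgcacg
Gars: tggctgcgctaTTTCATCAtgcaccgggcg
They lie at chr2:119351038-119351067, plus strand for Chac1, chr4:129189895-129189924, plus strand for Yars and chr13:49682126-49682155, plus strand for Iars. Those of the other genes lie at chr11:120643833-120643862, minus strand for Pycr1, chr6:7693214-7693243, minus strand for Asns and chr6:55037960-55037989, plus strand for Gars. The match began 193 bases before the start in Chac1, 103 in Pycr1, 30 in Gars and 23 in Asns, and after the start in Yars and Iars. In Yars, Pycr1 and Asns the capitals read TGATGNAA on the gene's strand, and in Chac1, Iars and Gars they read its reverse complement.

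Chac1 had the smallest p of the genes with a match, so its 250 bases before the start, at chr2:119350992-119351241 on the plus strand, are given in full, again with the match in capitals. For contrast, Slc7a11, a gene whose level did not pass the test between DN and GFP, held matches on both strands within 47 bases at chr3:50443643-50443689 on the minus strand. It was picked for display after its values were seen.
Chac1 promoter: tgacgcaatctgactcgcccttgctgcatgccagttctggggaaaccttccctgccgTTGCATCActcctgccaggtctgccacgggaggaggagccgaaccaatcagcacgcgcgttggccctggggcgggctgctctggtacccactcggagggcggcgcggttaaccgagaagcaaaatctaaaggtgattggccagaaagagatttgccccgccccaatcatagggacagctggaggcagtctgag
Slc7a11 promoter: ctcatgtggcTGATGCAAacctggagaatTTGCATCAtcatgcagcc
The element was present in 10 of the 24 genes with a window that were higher in DN, and in 3 of the 12 that were not called, namely Tars, Slc7a11 and Vldlr.

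Gene counts summed to between 10.7 M and 39.1 M per library (M, 1e+06 counts), and the smallest total was that of untransduced replicate 4, the next being 24.1 M. That library also stood apart in Malat1, a nuclear RNA, with 37657 CPM (counts scaled to 1e+06 by the library's TMM-adjusted total) against 1875 to 8316 CPM in the other 29, so results that rest on it are given with and without it. All 9 neuronal markers on a fixed list were detected, and their summed level ranged over 2618 to 4322 CPM in DN, 2414 to 4114 CPM in GFP and 2551 to 4476 CPM in untransduced libraries. Satellite glia markers summed to 1008 to 1760.3 CPM in DN, 1052 to 1988 CPM in GFP and 673 to 1960.4 CPM in untransduced libraries, Schwann cell markers to 1462 to 2851 CPM in DN, 1491 to 2726 CPM in GFP and 1139 to 2511 CPM in untransduced libraries, and fibroblast markers to 3673 to 8047 CPM in DN, 3783 to 7175 CPM in GFP and 2984 to 6189.8 CPM in untransduced libraries. Endothelial and mural markers summed to 696 to 1273 CPM in DN, 771 to 1497 CPM in GFP and 519.9 to 1236 CPM in untransduced libraries, and macrophage markers to 11.6 to 18.3 CPM in DN, 11.8 to 25.6 CPM in GFP and 10.5 to 22.3 CPM in untransduced libraries. No listed marker was at 0 in every library of a condition. In bulk RNA, fewer cells of a type and less RNA per cell cannot be told apart.

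With AP-1 inhibited, most of the 47 genes were higher. In DN against GFP libraries 31 of 47 rose and 0 fell at a Benjamini-Hochberg adjusted p under 0.05 by edgeR's quasi-likelihood F test, with the culture as a block, while 7.98% of all tested genes rose and 3.39% fell. The median log2 fold change over the 47 genes was 0.29, against 0.00 over all tested genes. Of the 47 genes 42 lay above zero, as did 8987 of 18063 tested genes. The rises were modest, from 1.16-fold to 1.85-fold with a median of 1.28-fold. The largest belonged to the transporter Slc7a5, the transcription factor Atf5, the proline enzyme Pycr1 and the glutathione-degrading enzyme Chac1. Of the 31 genes that rose, 21 were higher in DN in all 10 cultures, 7 in 9 and 3 in 8. They were called on the same libraries, so this agreement is in part built in, and it was not counted over all genes. Rars, which was not called, was also higher in all 10. In 4 genes, Slc7a5, Slc7a1, Lars and Yars, every DN library lay above every GFP library, which held for 0.653% of all tested genes.

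The way libraries were scaled moved the balance of higher and lower genes. Genes higher in DN made up 70.2% of all called genes under TMM scaling, 63.1% under median-ratio scaling and 57.1% under upper-quartile scaling. The 47 genes had 31, 30 and 26 rises and 0 falls under these scalings, with 42, 40 and 37 of them above zero. Without untransduced replicate 4, 32 of 47 rose, against a background of 11.8%, the added gene being Tars at an edgeR adjusted p of 0.0492.

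Among the markers of cell types, 4 of 9 neuronal markers rose and 2 fell in DN against GFP. Those that rose were Avil, Prph, Isl1 and Pou4f1, with log2 fold changes from 0.40 to 0.74, and those that fell were Tubb3 at -0.72 and Nefl at -0.48. Of the other lists, 0 of 10 satellite glia markers rose and 1 fell, 1 of 10 Schwann cell markers rose and 2 fell, and 0 of 9 fibroblast markers rose and 1 fell. For endothelial and mural markers 1 of 8 tested rose and 2 fell, and for macrophage markers 0 of 8 tested rose and 1 fell. Across all tested genes 7.98% rose and 3.39% fell. All 10 satellite glia markers lay below zero against GFP, with a median log2 fold change of -0.12. Against untransduced libraries 6 of the 10 lay above zero and 4 below, with a median of 0.00. Of the macrophage markers 7 of 8 lay below zero against GFP and 1 above. The summed marker levels of DN and GFP libraries overlapped for every list. Their part in the results below was not tested.

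**Figure D1:**
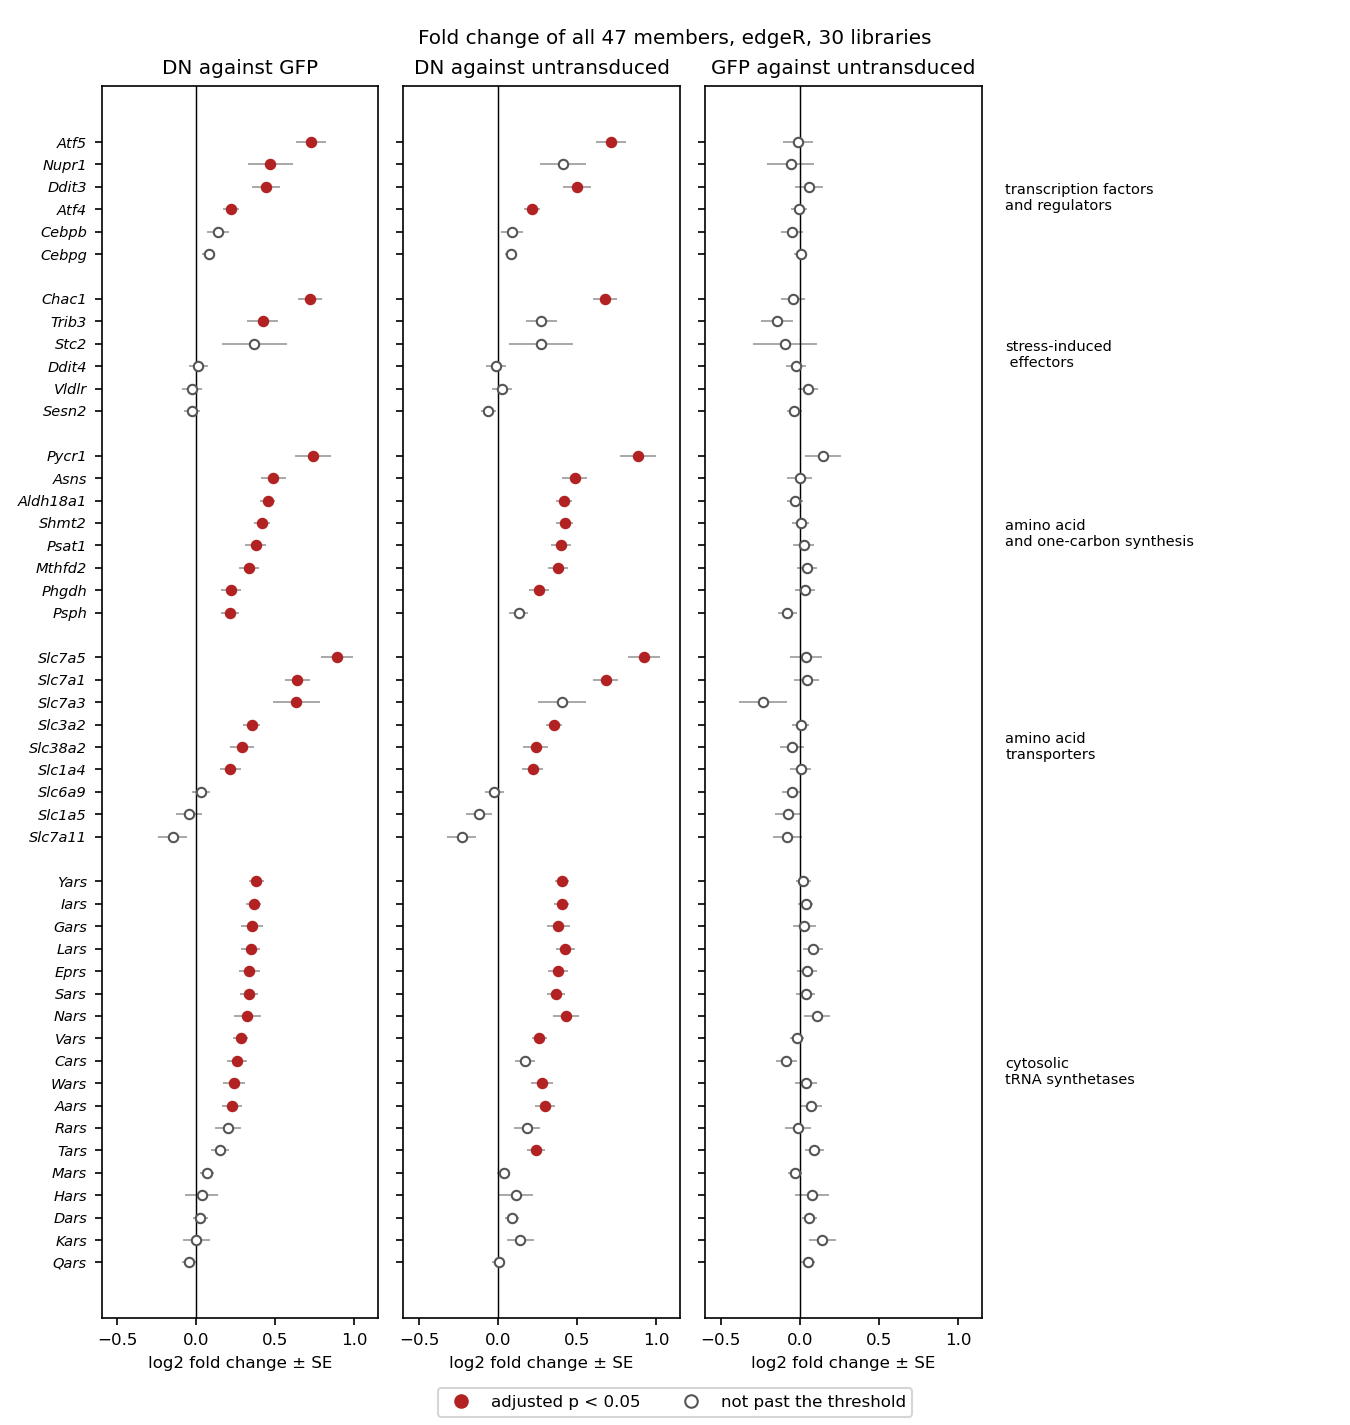
Log2 fold change with its SE for each of the 47 genes, grouped by role, in DN against GFP, DN against untransduced and GFP against untransduced libraries (10 libraries each). Filled points passed the edgeR threshold: 31 genes in DN against GFP, 27 in DN against untransduced and 0 in GFP against untransduced.

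Of the 6 transcription factors and regulators, 4 rose in DN against GFP. In the sentences that follow, 3 CPM values per condition are its lowest, median and highest library. Atf5 (Ensembl gene ENSMUSG00000038539, chr7:44812256-44816658, minus strand on GRCm38), an ATF4-related factor that activates mitochondrial and amino acid stress genes, had 175, 299 and 392 CPM in DN, against 122, 162 and 256 CPM in GFP and 100.5, 177 and 241 CPM in untransduced libraries. It was higher in DN in all 10 cultures, and its log2 fold change against GFP was 0.73 (SE 0.09, edgeR adjusted p = 4.90e-06). Atf5 shares 82 exon bases with Nup62 on the opposite strand, and Nup62 averaged 54.0 CPM against 215 CPM for Atf5. Atf4 (ENSMUSG00000042406, chr15:80255184-80257541, plus strand), the central factor of the response, is regulated mainly in its translation, which RNA counts do not show. It had 236, 273 and 337 CPM in DN, against 201, 239.6 and 275 CPM in GFP and 191, 247 and 257 CPM in untransduced libraries. Its ranges overlapped, yet DN was the higher in all 10 cultures, with a log2 fold change of 0.22 (SE 0.05, edgeR adjusted p = 0.00356).

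Ddit3 encodes CHOP, a factor of prolonged stress and cell death, and had 29.9, 43.7 and 62.9 CPM in DN, against 22.9, 32.8 and 42.3 CPM in GFP and 23.9, 29.6 and 42.6 CPM in untransduced libraries. Its log2 fold change was 0.44 (SE 0.09, edgeR adjusted p = 0.00109), with 8 of 10 cultures higher in DN. Ddit3 shares 68 exon bases with Mars on the opposite strand, and the strand setting of the counting is not given in the sources used here. Nupr1, a small stress-induced chromatin regulator, was low, with 4.28, 7.57 and 9.10 CPM in DN, against 3.43, 4.73 and 9.48 CPM in GFP and 3.44, 5.24 and 6.70 CPM in untransduced libraries. Its log2 fold change of 0.47 (SE 0.15, edgeR adjusted p = 0.0347) was past the threshold, but not under 10 of 17 alternatives, where the adjusted p reached 0.131. The C/EBP partners did not pass: the log2 fold change was 0.14 for Cebpb (adjusted p = 0.259) and 0.08 for Cebpg (adjusted p = 0.258). Cebpb averaged 35.2 ± 5.49 CPM in DN and 32.1 ± 5.14 CPM in GFP, and Cebpg averaged 66.9 ± 6.02 CPM in DN and 63.6 ± 7.24 CPM in GFP (SD, n = 10 each). Cebpb shares 312 exon bases with Tmem189 on the opposite strand.

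Of the stress-induced effectors, Chac1 and Trib3 rose and the other 4 did not pass the test. Chac1 (ENSMUSG00000027313, chr2:119351229-119354381, plus strand) encodes an enzyme that degrades glutathione and is a sensitive ATF4 target. It had 25.9, 35.4 and 54.01 CPM in DN, against 15.8, 22.2 and 32.3 CPM in GFP and 18.7, 22.3 and 31.6 CPM in untransduced libraries. DN was higher in all 10 cultures, and the log2 fold change was 0.72 (SE 0.08, edgeR adjusted p = 2.78e-07). Trib3, a pseudokinase that restrains AKT signalling and ATF4 itself, had 11.6, 18.2 and 22.8 CPM in DN, against 10.6, 12.9 and 16.4 CPM in GFP and 12.02, 14.1 and 17.4 CPM in untransduced libraries. The log2 fold change came to 0.42 (SE 0.10, edgeR adjusted p = 0.00474), with 9 of 10 cultures higher in DN.

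The other effectors did not pass. Ddit4, an inhibitor of mTORC1, averaged 122 ± 15.7 CPM in DN and 120.4 ± 9.69 CPM in GFP. Sesn2, a leucine sensor that also acts on mTORC1, averaged 73.3 ± 7.02 CPM in DN and 74.7 ± 6.08 CPM in GFP, and Vldlr, a receptor for lipoproteins and reelin, averaged 357 ± 41.6 CPM in DN and 366 ± 62.8 CPM in GFP (SD, n = 10 each). Their log2 fold changes were 0.01 for Ddit4, -0.03 for Sesn2 and -0.03 for Vldlr, with adjusted p of 0.942, 0.81 and 0.869 by edgeR. Stc2, a secreted glycoprotein, was the least abundant of the 47 genes per kilobase of exon, averaging 2.45 ± 0.932 CPM in DN and 1.89 ± 0.556 CPM in GFP. A log2 fold change of 0.37 (SE 0.20, edgeR adjusted p = 0.309) had the largest uncertainty of these effectors.

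**Figure D2:**
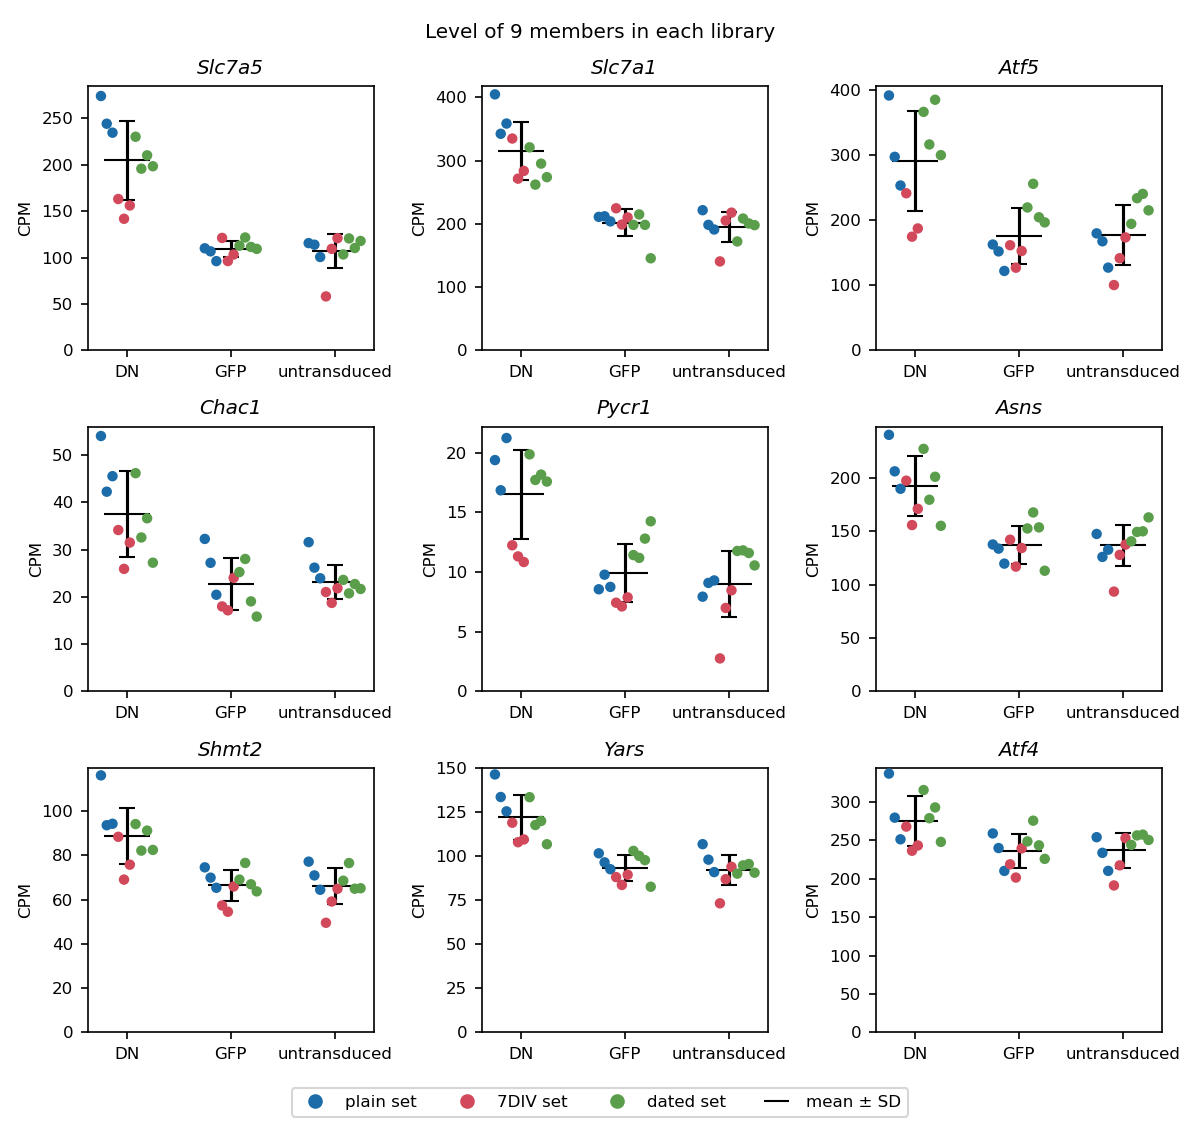
Levels in CPM of 9 of the genes in each of the 30 libraries, with DN on the left, GFP in the middle and untransduced on the right of each panel, points coloured by culture set and bars giving mean and SD (n = 10). For Slc7a5, Slc7a1 and Yars every DN library lies above every GFP library, whereas the ranges of Atf4 overlap.

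Every enzyme of amino acid and one-carbon synthesis on the list rose, 8 of 8. Pycr1 (ENSMUSG00000025140, chr11:120635712-120643769, minus strand), which carries out the last step of proline synthesis, had 10.8, 17.6 and 21.2 CPM in DN, against 7.12, 9.26 and 14.2 CPM in GFP and 2.76, 9.19 and 11.8 CPM in untransduced libraries. On the log2 scale DN exceeded GFP by 0.74 (SE 0.11, edgeR adjusted p = 4.52e-05). The lowest untransduced value, 2.76 CPM, was that of replicate 4. Aldh18a1, which acts at the start of the same pathway, had 58.8, 75.00 and 83.05 CPM in DN, against 45.7, 52.04 and 61.2 CPM in GFP and 40.5, 55.4 and 61.3 CPM in untransduced libraries, with a log2 fold change of 0.45 (SE 0.05, edgeR adjusted p = 5.39e-07). Both proline enzymes were higher in DN in all 10 cultures.

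Asns (ENSMUSG00000029752, chr6:7675169-7693254, minus strand), asparagine synthetase and a classic amino acid response gene, had 155, 194 and 241 CPM in DN, against 113, 136 and 168 CPM in GFP and 93.6, 139 and 163 CPM in untransduced libraries. It was higher in DN in all 10 cultures, with a log2 fold change of 0.49 (SE 0.08, edgeR adjusted p = 9.40e-05). In mitochondria, Shmt2 splits serine into glycine and a one-carbon unit, and Mthfd2 carries that unit onward. Shmt2 had 69.1, 89.8 and 116 CPM in DN, against 54.5, 66.5 and 76.6 CPM in GFP and 49.6, 65.1 and 77.2 CPM in untransduced libraries, a log2 fold change of 0.42 (SE 0.05, edgeR adjusted p = 4.11e-06). Mthfd2 had 66.02, 91.9 and 114 CPM in DN, against 54.8, 69.8 and 96.2 CPM in GFP and 38.5, 80.4 and 85.2 CPM in untransduced libraries, a log2 fold change of 0.33 (SE 0.06, edgeR adjusted p = 4.79e-04). Both were higher in DN in all 10 cultures, while the ranges of the conditions overlapped.

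Serine is made from a glycolytic intermediate by Phgdh, Psat1 and Psph in turn. The middle enzyme had the largest fold change of these: Psat1 had 75.7, 112 and 139 CPM in DN, against 53.9, 74.95 and 115 CPM in GFP and 41.4, 79.7 and 113 CPM in untransduced libraries, a log2 fold change of 0.38 (SE 0.06, edgeR adjusted p = 1.82e-04), and 10 of 10 cultures higher in DN. Phgdh had 32.1, 58.8 and 91.4 CPM in DN, against 27.2, 46.1 and 78.5 CPM in GFP and 26.5, 43.4 and 69.4 CPM in untransduced libraries. Its log2 fold change was 0.22 (SE 0.06, edgeR adjusted p = 0.0203), with 8 of 10 cultures higher, and the call was lost under 8 of 17 alternatives. Psph had 11.96, 19.3 and 27.1 CPM in DN, against 9.63, 17.3 and 20.1 CPM in GFP and 11.1, 19.1 and 23.2 CPM in untransduced libraries. The log2 fold change came to 0.21 (SE 0.06, edgeR adjusted p = 0.0183), with 9 of 10 cultures higher, and the call was lost under 6 of 17 alternatives. Psph shares 452 exon bases with Cct6a on the opposite strand, and Cct6a averaged 168 CPM over all libraries, against 17.2 CPM for Psph.

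Amino acid transporters held both the largest rise and the lowest fold change of the 47 genes, and 6 of 9 rose. Slc7a5 (ENSMUSG00000040010, chr8:121881150-121907694, minus strand), the LAT1 carrier of large neutral amino acids such as leucine, had 142, 204 and 274 CPM in DN, against 96.2, 109.7 and 122 CPM in GFP and 58.2, 112 and 121 CPM in untransduced libraries. No DN library overlapped with a control library. The log2 fold change was 0.89 (SE 0.10, edgeR adjusted p = 9.08e-07), a 1.85-fold rise and rank 93 by p among all tested genes. Slc3a2, the heavy chain that LAT1 and several other carriers need to reach the membrane, had 158, 193 and 275 CPM in DN, against 132, 161 and 189 CPM in GFP and 105, 164 and 192 CPM in untransduced libraries. On the log2 scale DN exceeded GFP by 0.35 (SE 0.05, edgeR adjusted p = 3.23e-05), and DN was higher in all 10 cultures.

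The carriers of the cationic amino acids arginine and lysine also rose. Slc7a1 (ENSMUSG00000041313, chr5:148327410-148399904, minus strand) had 262, 308 and 405 CPM in DN, against 146, 207 and 225 CPM in GFP and 141, 199.7 and 222 CPM in untransduced libraries, with no overlap between DN and either control. Its log2 fold change was 0.64 (SE 0.08, edgeR adjusted p = 2.23e-06). Slc7a3 was much lower in level, with 2.61, 6.98 and 9.42 CPM in DN, against 1.75, 3.80 and 5.86 CPM in GFP and 2.31, 4.61 and 6.65 CPM in untransduced libraries. The log2 fold change came to 0.63 (SE 0.15, edgeR adjusted p = 0.00484), with DN higher in 10 of 10 cultures, while the difference from untransduced libraries passed only without untransduced replicate 4. Against them it was 0.40 (SE 0.15, edgeR adjusted p = 0.0802) with that library and 0.51 (SE 0.13, edgeR adjusted p = 0.0062) without it.

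Among carriers of small neutral amino acids, Slc38a2, known as SNAT2 and induced by amino acid shortage, had 213, 263 and 302 CPM in DN, against 156, 225 and 268 CPM in GFP and 188, 213 and 270.4 CPM in untransduced libraries. On the log2 scale DN exceeded GFP by 0.29 (SE 0.08, edgeR adjusted p = 0.0124), with 9 of 10 cultures higher, and its call was lost under 4 of 17 alternatives. Slc1a4, an exchanger of alanine, serine and cysteine, had 87.5, 102 and 118 CPM in DN, against 78.6, 86.7 and 96.8 CPM in GFP and 52.4, 93.7 and 99.4 CPM in untransduced libraries. Its log2 fold change was 0.21 (SE 0.07, edgeR adjusted p = 0.0366), with 9 of 10 cultures higher, and its call was lost under 11 of 17 alternatives, the most of any of the 31 genes. Its relative Slc1a5, a glutamine exchanger, had a log2 fold change of -0.05 (SE 0.08, edgeR adjusted p = 0.803), averaging 31.5 ± 5.27 CPM in DN and 32.7 ± 5.07 CPM in GFP (SD, n = 10 each).

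Slc7a11, the cystine and glutamate exchanger that partners Slc3a2 and feeds glutathione synthesis, had the lowest fold change of the 47 genes. It averaged 26.8 ± 8.78 CPM in DN and 30.2 ± 11.03 CPM in GFP and 33.01 ± 16.1 CPM in untransduced libraries (SD, n = 10 each). The log2 fold change of DN was -0.15 (SE 0.09, edgeR adjusted p = 0.368) against GFP and -0.23 (SE 0.09, edgeR adjusted p = 0.105) against untransduced libraries. Slc6a9, the glycine transporter GlyT1, averaged 77.6 ± 11.6 CPM in DN and 76.1 ± 10.9 CPM in GFP, with a log2 fold change of 0.03 (SE 0.06, edgeR adjusted p = 0.848). It shares 1429 exon bases with Ccdc24 on the opposite strand, which averaged 0.634 CPM.

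Of the 18 cytosolic tRNA synthetases, which attach amino acids to their tRNAs, 11 rose and 7 did not pass. The highest fold change was that of Yars, for tyrosine (ENSMUSG00000028811, chr4:129189760-129219607, plus strand), which had 107, 119.6 and 147 CPM in DN, against 82.8, 94.7 and 103 CPM in GFP and 73.3, 92.6 and 107 CPM in untransduced libraries. All DN libraries lay above all GFP libraries, and the log2 fold change was 0.38 (SE 0.04, edgeR adjusted p = 1.32e-06). Yars shares 30 exon bases with C77080 on the opposite strand. Iars, for isoleucine (ENSMUSG00000037851, chr13:49682100-49734267, plus strand), had 109, 133 and 157 CPM in DN, against 81.5, 98.9 and 117 CPM in GFP and 80.8, 97.7 and 108 CPM in untransduced libraries, a log2 fold change of 0.36 (SE 0.05, edgeR adjusted p = 4.96e-06). Lars, for leucine, had 99.7, 110.3 and 139 CPM in DN, against 76.7, 87.9 and 92.8 CPM in GFP and 57.8, 85.7 and 89.8 CPM in untransduced libraries, a log2 fold change of 0.34 (SE 0.06, edgeR adjusted p = 2.62e-04). Its DN libraries lay above all libraries of both controls.

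Gars, for glycine, was the most abundant synthetase per kilobase of exon, with 259, 298 and 363 CPM in DN, against 206, 227 and 292 CPM in GFP and 146, 231 and 283 CPM in untransduced libraries. The log2 fold change came to 0.35 (SE 0.07, edgeR adjusted p = 9.12e-04), and DN was higher in all 10 cultures. Eprs, a fused enzyme for glutamate and proline, had 161, 223 and 261 CPM in DN, against 128, 173 and 198 CPM in GFP and 149.8, 163 and 201 CPM in untransduced libraries, a log2 fold change of 0.34 (SE 0.06, edgeR adjusted p = 6.61e-04). Sars, for serine, had 116, 149.5 and 189.7 CPM in DN, against 98.9, 118 and 135 CPM in GFP and 94.9, 115 and 139 CPM in untransduced libraries, a log2 fold change of 0.33 (SE 0.06, edgeR adjusted p = 2.11e-04). Eprs was higher in DN in all 10 cultures and Sars in 9.

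Nars, for asparagine, had 185, 238 and 289 CPM in DN, against 149, 189.6 and 216 CPM in GFP and 99.9, 179.9 and 208 CPM in untransduced libraries, a log2 fold change of 0.32 (SE 0.08, edgeR adjusted p = 0.00997). Vars, for valine, had 103, 119 and 149.7 CPM in DN, against 91.4, 102 and 106 CPM in GFP and 91.6, 103 and 113 CPM in untransduced libraries, a log2 fold change of 0.28 (SE 0.05, edgeR adjusted p = 1.30e-04). Cars, for cysteine, had 58.2, 63.7 and 86.9 CPM in DN, against 50.1, 54.7 and 68.3 CPM in GFP and 52.2, 56.5 and 88.7 CPM in untransduced libraries, a log2 fold change of 0.26 (SE 0.06, edgeR adjusted p = 0.00832). Nars, Vars and Cars were each higher in DN in all 10 cultures, though the ranges of DN and GFP overlapped.

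The calls of Aars and Wars were the least steady of the synthetases. Aars, for alanine, had 233, 283 and 330.5 CPM in DN, against 201, 236 and 264 CPM in GFP and 159, 232 and 245 CPM in untransduced libraries. On the log2 scale DN exceeded GFP by 0.22 (SE 0.06, edgeR adjusted p = 0.0217), with 9 of 10 cultures higher, and the call was lost under 6 of 17 alternatives. Wars, for tryptophan, had 124, 144 and 172 CPM in DN, against 103, 123 and 138 CPM in GFP and 70.7, 126 and 133 CPM in untransduced libraries. Its log2 fold change was 0.24 (SE 0.07, edgeR adjusted p = 0.0268), with 9 of 10 cultures higher, and the call was lost under 9 of 17 alternatives.

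The 7 synthetases that did not pass had log2 fold changes of 0.20 for Rars (arginine), 0.15 for Tars (threonine), 0.07 for Mars (methionine) and 0.03 for Hars (histidine). They were 0.03 for Dars (aspartate), 0.00 for Kars (lysine) and -0.05 for Qars (glutamine). Rars had DN higher in 10 of 10 cultures with an adjusted p of 0.138 by edgeR, and Qars in 2 of 10. Hars shares 195 exon bases with Hars2 on the opposite strand. The synthetases also differ in where they sit: 8 of the 18 are known members of the multi-synthetase complex (Dars, Eprs, Iars, Kars, Lars, Mars, Qars and Rars). Of these, 3 of 8 rose, with a median log2 fold change of 0.13, whereas 8 of the 10 outside it rose, with a median of 0.27. This split was looked at after the values were seen and was not tested.

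Against untransduced libraries the same genes were examined with a control that shares no vector. DN was higher in 27 of 47 genes and lower in 0, while 8.94% of all tested genes were higher and 4.25% lower. Both comparisons use the same DN libraries, so their calls are not independent. The calls had 26 genes in common, which is 26 of 31 against GFP and 26 of 27 against untransduced. Cars, Nupr1, Psph, Slc7a3 and Trib3 passed against GFP alone, and Tars against untransduced alone. Without untransduced replicate 4 only Psph of these 6 passed in 1 comparison alone (edgeR adjusted p = 0.138 against untransduced). Slc38a2, called in both with all libraries, then passed against GFP alone (edgeR adjusted p = 0.0617 against untransduced). Its call against untransduced was lost under 11 of 17 alternatives. Against untransduced libraries the adjusted p was then 4.10e-05 for Cars, 0.0217 for Nupr1, 0.0062 for Slc7a3 and 0.00615 for Trib3. Tars averaged 49.5 ± 4.13 CPM in DN and 44.7 ± 3.87 CPM in GFP and 41.9 ± 3.69 CPM in untransduced libraries (SD, n = 10 each), with a fold of 1.18 over untransduced. A call in 1 comparison and not in the other does not show that the 2 differ, and that difference was not tested.

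The genes with the largest fold changes against GFP can be set beside their values against untransduced libraries. Slc7a5 had a log2 fold change of 0.93 (SE 0.10, edgeR adjusted p = 6.12e-07) against untransduced, Pycr1 0.88 (SE 0.12, edgeR adjusted p = 5.76e-06), Atf5 0.71 (SE 0.09, edgeR adjusted p = 6.93e-06), Slc7a1 0.68 (SE 0.08, edgeR adjusted p = 1.10e-06) and Chac1 0.68 (SE 0.08, edgeR adjusted p = 7.36e-07). Every DN library lay above every untransduced library for Slc7a5, Slc7a1, Iars and Lars, which held for 0.576% of all tested genes. Without untransduced replicate 4, 30 of 47 were higher, against a background of 10.5%.

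The vector with GFP, compared with no vector, changed none of the 47 genes past the threshold. By edgeR 0 of 47 were higher and 0 lower, as were 0% and 0% of all tested genes, with 373 of 18063 genes and 0 of the 47 at an unadjusted p under 0.05. DESeq2 called 3 genes higher and 1 lower of all genes, and 0 of the 47. The log2 fold changes of the 47 genes ran from -0.23 for Slc7a3 to 0.15 for Pycr1, with a median of 0.00 and 26 of 47 above zero. Without untransduced replicate 4 they ran from -0.12 for Slc7a3 to 0.06 for Eprs, with a median of -0.02 and 16 of 47 above zero. A p that misses the threshold does not show that the conditions were equal.

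**Figure D3:**
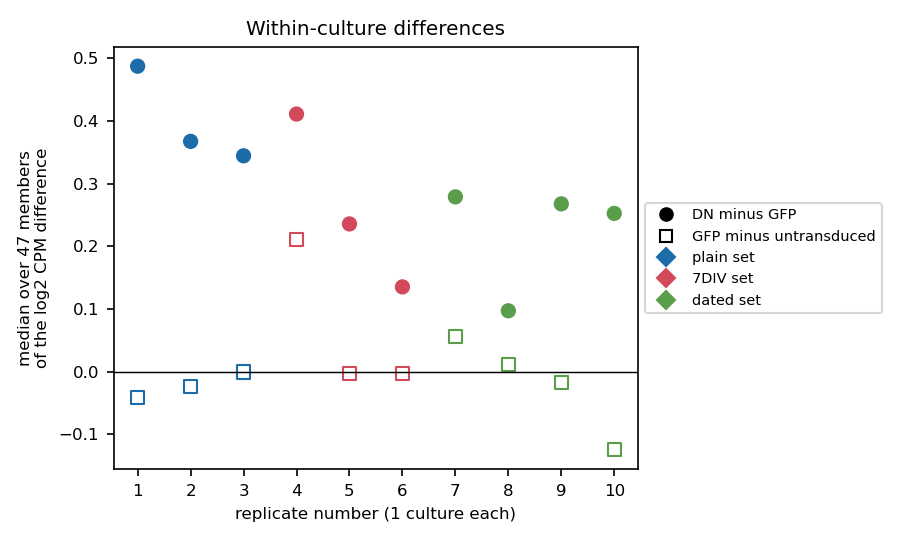
Median over the 47 genes of the difference in log2 CPM within each of the 10 cultures, DN minus GFP as filled points and GFP minus untransduced as open points. DN minus GFP lies between 0.0974 and 0.488 and is above zero in 10 of 10 cultures, while GFP minus untransduced lies between -0.125 and 0.211.

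Values within single cultures rest on the replicate numbers, whose link to a mouse is assumed. The median of the 47 within-culture differences in log2 CPM, DN minus GFP, was 0.488, 0.368 and 0.345 in cultures 1 to 3 of the plain set. It was 0.411, 0.236 and 0.136 in cultures 4 to 6 of the 7DIV set, and 0.279, 0.0974, 0.268 and 0.253 in cultures 7 to 10 of the dated set. Between 30 and 41 of the 47 genes were higher in DN in each culture, and the share over all tested genes was not taken. All 10 medians were above zero. The GFP minus untransduced medians were above zero in 3 of 10 cultures, and the highest of them, 0.211, was in culture 4, which holds untransduced replicate 4. These values describe the list and carry no test.

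By culture set, all 31 genes that rose in DN against GFP lay above zero in the plain, 7DIV and dated sets alike. The 31 were called on these same libraries, so their agreement in sign is in part built in. Of all 47 genes, 34 lay above zero in all 3 sets, and the share over all tested genes was not taken. By set, 38, 41 and 42 of the 47 lay above zero in plain, 7DIV and dated libraries. So did 8810, 9316 and 9309 of 18063 tested genes. The plain set had the largest of the 3 fold changes in 27 of the 31 called genes. The 7DIV set had it in 3 and the dated set in 1. That pattern was not counted over all tested genes, so it is not shown to be particular to the 31. Fitted per set, 24 of 47 genes rose in the plain set (background 5.61%), 7DIV libraries gave 7 (1.89%) and dated libraries 11 (2.05%). No member fell in any set, while 2.39%, 0.72% and 1.11% of all tested genes did in the plain, 7DIV and dated sets. The median log2 fold change over the 47 genes was 0.40 for the plain set, 0.24 for 7DIV and 0.23 for the dated set. Chac1, Shmt2, Aldh18a1, Iars and Yars rose in all 3 sets, and the share of all tested genes that did so was not taken.

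These counts depended on untransduced replicate 4, which is not in the DN and GFP comparison but enters the filter, the culture block and the shared estimate of spread. Without it 30, 21 and 22 of 47 genes rose in the plain, 7DIV and dated sets, against backgrounds of 9.41%, 6.67% and 4.45%. Then 16 of the 47 rose in all 3, a count whose share over all tested genes was not taken. Leaving out single cultures moved the counts too. Of the 47 genes, 12 rose in the plain set without replicate 1 and 1 in the 7DIV set without replicate 5. In the dated set 4 rose without replicate 7 or replicate 9. Shares over all genes are not given here for these settings, so the shifts are not shown to be particular to the 47. With all 30 libraries, in the plain set Slc7a5 had a log2 fold change of 1.27 (SE 0.16, adjusted p = 8.09e-06), against 0.52 (SE 0.16, adjusted p = 0.0775) for 7DIV and 0.88 (SE 0.13, adjusted p = 3.81e-04) for the dated set. Atf5 had 1.10 (SE 0.15, adjusted p = 3.07e-05) for the plain set, 0.45 (SE 0.15, adjusted p = 0.115) for 7DIV and 0.64 (SE 0.13, adjusted p = 0.00462) for the dated set, all by edgeR. Without untransduced replicate 4 both genes passed at 7DIV, with an edgeR adjusted p of 2.72e-05 for Slc7a5 and 0.00287 for Atf5. Trib3 had 0.76, 0.06 and 0.41 with all libraries in the plain, 7DIV and dated sets, and Ddit3 0.74, 0.13 and 0.45. Chac1 was at 0.84, 0.63 and 0.69.

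Whether the DN effect differed between sets was tested with the interaction of condition and set. Of the 47 genes 0 passed, against 0.365% of all tested genes, with 7 of the 47 (14.9%) at an unadjusted p under 0.05 (Atf5, Ddit3, Trib3, Stc2, Slc7a5, Hars and Rars), as were 9.53% of all tested genes. Without untransduced replicate 4, 3 of 47 passed against a background of 3%. These were Atf5 (edgeR adjusted p = 0.0129), Trib3 (0.0218) and Slc7a5 (5.11e-04). Of the 9 neuronal markers, 5 were called higher and 1 lower in DN in the plain set, 1 higher and 0 lower at 7DIV, and 1 higher and 2 lower in dated cultures, with 7 of 9 above zero in each set. The median log2 fold change of the neuronal markers was 0.59 in the plain set, 0.31 at 7DIV and 0.13 in dated cultures. For the 10 satellite glia markers it was -0.28, -0.003 and -0.10. The part of these markers in the differences between sets was not tested.

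**Figure D4:**
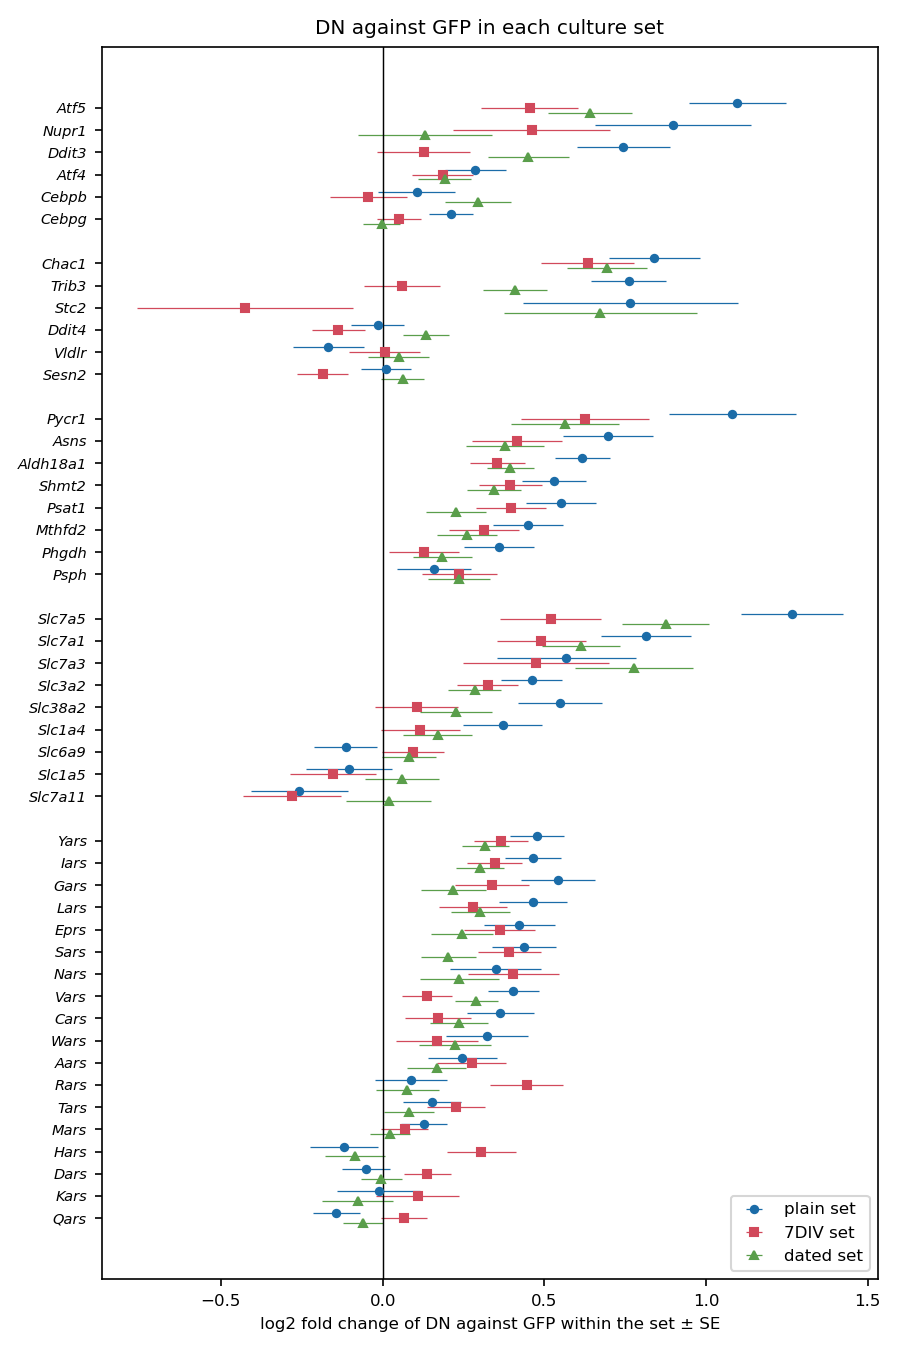
Log2 fold change of DN against GFP with its SE for each of the 47 genes in the plain (3 libraries per condition), 7DIV (3) and dated (4) culture sets. Most points lie right of zero in each set, with the plain set showing the largest values for most of the 31 genes that rose. The place of the largest value was not counted over all tested genes.

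The control level of these genes itself varied between sets. In GFP libraries 23 of 47 genes (48.9%) differed between the 3 sets by edgeR, where 42% of all tested genes did, so the share of the 47 is near the background. The level was lowest in the 7DIV set for 17 of the 23 (73.9%) and in the dated set for 6 (26.1%), against 43.9% and 32.7% of all genes that differed between sets, and this difference in shares was not tested. Phgdh had 44.5 ± 3.56 CPM in plain, 32.2 ± 4.48 CPM in 7DIV and 71.2 ± 5.60 CPM in dated cultures (SD, n = 3, 3 and 4). Psat1 had 73.5 ± 2.68 CPM in plain, 61.4 ± 6.57 CPM in 7DIV and 109 ± 4.57 CPM in dated cultures, and Slc7a11 had 44.8 ± 7.26 CPM in plain, 27.5 ± 1.20 CPM in 7DIV and 21.3 ± 1.99 CPM in dated cultures. Phgdh and Psat1 were thus lowest in the 7DIV set and highest in the dated set, and Slc7a11 was highest in the plain set. Culture set and the days, dates or handling that its title stands for cannot be told apart here.

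Other genes of the pathway and its neighbours, not among the 47, were examined as lists. Their shares can be set beside the 7.98% of all tested genes that rose in DN against GFP and the 3.39% that fell. Of 21 genes for the kinases, phosphatases and eIF2 machinery of the response, 1 rose (4.76%) and 0 fell, with a median log2 fold change of 0.04. The gene that rose was Impact, an inhibitor of the kinase GCN2, at 118 ± 8.53 CPM in DN and 97.7 ± 7.99 CPM in GFP (log2 fold change 0.28, SE 0.05, edgeR adjusted p = 7.25e-04). The ATF6 and XBP1 arms of the unfolded protein response had 2 of 21 genes (9.52%) higher and 0 lower, a share near the 7.98% of all tested genes, with a median of -0.02. These were Atf6, at 129.9 ± 10.2 CPM in DN and 115 ± 11.9 CPM in GFP (log2 fold change 0.18, SE 0.04, edgeR adjusted p = 0.00438), and Xbp1, at 72.6 ± 9.00 CPM in DN and 64.01 ± 6.97 CPM in GFP (log2 fold change 0.18, SE 0.05, edgeR adjusted p = 0.0116).

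Of 22 other known ATF4 targets, 8 rose (36.4%) and 3 fell, with a median of 0.10. The 4 with the smallest p went in both directions. Pck2, mitochondrial phosphoenolpyruvate carboxykinase, rose, at 76.8 ± 18.5 CPM in DN and 43.9 ± 6.89 CPM in GFP (log2 fold change 0.79, SE 0.07, edgeR adjusted p = 2.05e-08), as did Ero1l, an oxidase of the endoplasmic reticulum, at 152 ± 30.1 CPM in DN and 109 ± 7.54 CPM in GFP (log2 fold change 0.45, SE 0.06, edgeR adjusted p = 1.79e-05). Atf3, a stress factor that is also an AP-1 partner and an injury marker of sensory neurons, fell, at 56.4 ± 11.3 CPM in DN and 113 ± 33.1 CPM in GFP (log2 fold change -0.98, SE 0.09, edgeR adjusted p = 4.60e-08). Gadd45a, a growth arrest and DNA damage gene, fell too, at 33.4 ± 8.13 CPM in DN and 48.4 ± 12.9 CPM in GFP (log2 fold change -0.52, SE 0.10, edgeR adjusted p = 9.12e-04).

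Mitochondrial stress genes had 5 of 11 (45.5%) higher and 0 lower, with a median of 0.19. Fgf21, a secreted stress hormone, was close to the detection limit, at 1.04 ± 0.612 CPM in DN and 0.181 ± 0.156 CPM in GFP (log2 fold change 2.46, SE 0.50, edgeR adjusted p = 0.00114). The chaperones Hspa9 and Hspd1 and the co-chaperone Dnaja3 were higher, with log2 fold changes of 0.32, 0.21 and 0.28. The mitochondrial protease Lonp1 was higher by 0.28 on the log2 scale (edgeR adjusted p = 0.00192). Fgf21 and Lonp1 are on both this list and that of ATF4 targets.

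A separate set of enzymes charges tRNAs in mitochondria. Of 20 mitochondrial synthetase genes 3 rose (15%, against 7.98% of all tested genes) and 0 fell, with a median of 0.12. They were Iars2 (log2 fold change 0.19, SE 0.04, edgeR adjusted p = 5.29e-04), Qrsl1 (log2 fold change 0.39, SE 0.09, edgeR adjusted p = 0.00564) and Ears2 (log2 fold change 0.40, SE 0.10, edgeR adjusted p = 0.0102). Of 7 other cytosolic synthetase and scaffold genes 1 rose (14.3%) and 0 fell. The 1 was Farsb, a phenylalanine synthetase subunit (log2 fold change 0.25, SE 0.06, edgeR adjusted p = 0.00549).

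Other genes of serine and one-carbon metabolism had 1 of 23 (4.35%) higher and 2 lower, with a median of -0.01. The mitochondrial enzyme Aldh1l2 was the 1 that rose, at 26.1 ± 7.33 CPM in DN and 16.5 ± 2.87 CPM in GFP (log2 fold change 0.63, SE 0.12, edgeR adjusted p = 7.51e-04). Its cytosolic relative Aldh1l1 fell, at 18.95 ± 3.04 CPM in DN and 22.2 ± 3.77 CPM in GFP (log2 fold change -0.22, SE 0.07, edgeR adjusted p = 0.0249). Glul, glutamine synthetase, fell as well, at 111 ± 11.6 CPM in DN and 148 ± 12.4 CPM in GFP (log2 fold change -0.41, SE 0.08, edgeR adjusted p = 5.76e-04), and both are also known as genes of glial cells. Glul is on the satellite glia list too, as the 1 of its 10 markers that fell.

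Of 24 other amino acid transporters that passed the filter, of 30 listed, 6 rose (25%) and 2 fell, with a median of -0.01. The 4 with the smallest p all rose. They were Slc25a22, a mitochondrial glutamate carrier, at 53.7 ± 6.20 CPM in DN and 40.96 ± 7.21 CPM in GFP (log2 fold change 0.40, SE 0.05, edgeR adjusted p = 4.91e-06), and Slc1a6, a glutamate transporter, at 2.57 ± 0.411 CPM in DN and 1.43 ± 0.377 CPM in GFP (log2 fold change 0.86, SE 0.19, edgeR adjusted p = 0.0032). Slc36a1, a lysosomal proton-coupled carrier, was at 263 ± 37.7 CPM in DN and 203 ± 50.2 CPM in GFP (log2 fold change 0.40, SE 0.09, edgeR adjusted p = 0.00437), and Slc38a9, a lysosomal arginine sensor for mTORC1, at 42.4 ± 4.16 CPM in DN and 34.1 ± 6.13 CPM in GFP (log2 fold change 0.33, SE 0.08, edgeR adjusted p = 0.006).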

How the data were processed

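RNA libraries of DRG cultures (RNeasy Micro extraction and TruSeq preparation, per the labels) were compared as DN, GFP and untransduced, 10 each. The deposited gene table holds raw read counts per Ensembl gene, with no normalization by the authors found: values are whole numbers and totals differ between libraries. The submitters' processing notes name bcl2fastq 2.17, STAR, HTSeq and the GRCm38/mm10 build. The settings, strand and annotation of the counting were not given in the sources used here. A deposited table of repeat intervals was not used here. Symbols and positions came from GENCODE M21, which gave a symbol for 48435 of 48795 identifiers.

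Counts were analysed with edgeR 4.0.16 in R 4.3.3. Genes were kept by filterByExpr by condition (18063 of 33717 with any count), scaled by TMM and fitted with robust quasi-likelihood models on all 30 libraries, with condition and the replicate number as a block. The block rests on the series' statement that each mouse's culture was divided between conditions. No label ties a library to a mouse, and same-number pairs, after condition and culture set were taken off, correlated above 0.1 across genes in 8 of 30 cases (r from -0.05 to 0.33, median 0.06). No such values were taken for pairs with different numbers. No libraries were identical, and the lowest chi-square per gene over 135 pairs within a condition was 5.37. Culture set comparisons added condition by set terms, and control levels by set were fitted to the 10 GFP libraries. Tests were two-sided F tests, adjusted by Benjamini-Hochberg over all tested genes, with a threshold of 0.05. The SE of a log2 fold change is its size divided by the square root of F. The common biological coefficient of variation was 0.18. Per-culture median differences used log2(CPM + 0.1), and tallies of cultures used log2 CPM with a prior count of 2. The model fit was also run on simulated counts with known changes in DN. These held no culture or set effect and no library with a profile of its own, so they could not check the block or set terms.

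The members and lists were chosen with earlier results of these data known. By rule every member is named, members past the threshold against GFP with full values, and of each other list all genes past it where 5 or fewer, otherwise the 4 with the smallest p. The names Gcn1 and Pycr3 of the other lists had no match. Motifs were sought on both strands of RefSeq windows. Alternatives were other scaling factors, no filter, no block, DESeq2 1.42.0, each culture left out and untransduced replicate 4 left out. Markers of cell types were summed CPM.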

Additional observations from a re-analysis of the deposited data

Results flagged for a closer look

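In each of the 3 conditions, every member's 10 library values were examined for a highest or lowest library whose gap to its neighbour, divided by the whole range, was above Dixon's 95% critical value of 0.466. Of 141 such groups, 17 had one, and chance gives about 1 in 20. Untransduced replicate 4, the library with the fewest counts and the most Malat1, gave 12 of the 17. It was the highest untransduced library for Cars at 88.7 CPM and for Eprs at 201 CPM. It was the lowest for Aars at 159 CPM, Aldh18a1 at 40.5 CPM, Asns at 93.6 CPM, Kars at 34.5 CPM and Lars at 57.8 CPM. It was also the lowest for Nars at 99.9 CPM, Pycr1 at 2.76 CPM, Slc1a4 at 52.4 CPM, Slc7a5 at 58.2 CPM and Wars at 70.7 CPM.

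The other 5 lay in single libraries elsewhere. DN replicate 1 was high for Cebpb at 48.9 CPM and for Lars at 139 CPM. Untransduced replicate 7 was low for Iars at 80.8 CPM. GFP replicate 10 was high for Nupr1 at 9.48 CPM and low for Slc7a1 at 146 CPM.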

How the results depend on the processing

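Over 17 alternatives, 19 of the 31 calls of DN against GFP and 21 of the 27 of DN against untransduced were kept under all, and no member's call reversed. The number of members higher in DN than in GFP was 30 with median-ratio factors, 26 with upper-quartile factors, 27 with no filter, 31 with DESeq2, 30 where a set covariate stood in for the block (no replicate block), and 19 with no replicate block and no set term. Leaving out each culture in turn gave 25 to 31 against GFP and 25 to 30 against untransduced, where Slc7a11 was the 1 member lower, without replicate 10 (0 to 1). Of all genes, 1442 were higher and 612 lower against GFP, but 711 and 262 with no block and no set term, 2149 and 1090 without untransduced replicate 4, and 1442 and 935 by DESeq2. Calls were lost under 11 settings for Slc1a4, 10 for Nupr1, 9 for Wars, 8 for Phgdh, 6 each for Psph and Aars and 4 for Slc38a2, and with no block and no set term alone for Atf4, Cars, Mthfd2, Psat1 and Slc7a3. Leaving out culture 1, 2 or 3 ended the calls of Slc1a4, Nupr1, Wars, Phgdh, Aars and Slc38a2. Leaving out culture 5 ended those of Slc1a4, Nupr1, Wars, Phgdh, Aars and Psph, culture 7 those of Slc1a4, Nupr1, Wars, Phgdh and Psph and culture 9 those of Slc1a4, Wars, Phgdh and Psph. Cultures 4 and 8 each ended that of Nupr1, and culture 10 that of Slc1a4. The adjusted p over the 17 settings reached 0.163 for Slc1a4, 0.131 for Nupr1, 0.0989 for Wars, 0.797 for Phgdh, 0.0826 for Aars, 0.678 for Psph and 0.0668 for Slc38a2. Counts within sets were the least steady, and for most settings below no share over all genes is given here. Members higher in the 7DIV set were 4 with no replicate block, 21 without untransduced replicate 4, 0 with that set's libraries alone, and 20 with both changes, the last chosen after seeing the data. In the dated set they were 22 without untransduced replicate 4, and the difference between sets then passed for 3 members. Leaving out each culture gave 12 to 30 in the plain set (12 without replicate 1), 1 to 8 in the 7DIV set, 4 to 23 in the dated set and 0 to 3 members differing between sets. With all untransduced libraries in place of GFP, 14 members differed between sets (30.6% of all genes), and 23 without untransduced replicate 4 (50.3%). The cause of these shifts was not tested. Each set holds 3 or 4 libraries per condition. Depth was 24.1 M counts or more in every library except untransduced replicate 4, at 10.7 M.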
